A study of Homo sapiens with 5 samples.

Results

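The genes described here make the proteins that copy nuclear DNA and the deoxynucleotides it is built from. They were chosen by symbol, as 43 genes of DNA replication and nucleotide synthesis among the 18257 genes of the count table. All 43 were matched, and all 43 reached at least 1 CPM, the reads of a gene scaled to library size, in at least 2 libraries, as did 12234 genes in all. Poly(A) RNA had been sequenced from HEK293 T-Rex FLAG:DICER1 FLP-IN cells 18 h after transfection; the line derives from human embryonic kidney and was built to carry an integrated, FLAG-tagged DICER1 copy. The mock is a single library labelled as the control sample. DICER1 was targeted in 2 libraries and DROSHA in 2, each made with a different siRNA. All 5 libraries share the 1 line and its DICER1 insert, so a DICER1 read can come from the native gene or from the insert. No label states separate cultures for the libraries, and p-values then measure only the spread between these libraries.

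Before a cell copies its DNA, the origin recognition complex, CDC6 and CDT1 load rings of MCM proteins onto each origin. CDC45 and the GINS complex turn the loaded ring into an active helicase, and primase, the replicative polymerases, the PCNA clamp and its RFC loader then extend the new strands, while ribonucleotide reductase, thymidylate synthase and thymidine kinase supply deoxynucleotides. Many of these genes are transcribed as cells enter S phase under E2F factors, which the retinoblastoma protein family holds back. DROSHA and DICER1 cut microRNA precursors in sequence, and E2F1 is a textbook target of the miR-17 family.

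The letters that E2F factors are known to bind were present in more of these promoters than in promoters at large. Promoters were taken from RefSeq on GRCh38.p14, from 250 bases before to 50 bases after a gene's start, and 38 of the 43 genes had such a window. MCM4, MCM5, GINS4, RPA2 and RPA3 had none in the table. The E2F letters searched were TTTCCCGC, TTTGGCGC, TTTCGCGC and TTTGCCGC on both strands, and 20 of 38 promoters (52.6%) held at least 1 of them, against 616 of 9344 tested genes with a promoter (6.59%). CCAAT was present in 23 of 38 (60.5%) and in 43.8% of tested genes. TTTGAA, a letter run of the cell cycle homology region, was present in 2 of 38 (5.26%), UNG and RRM1, and in 13.6% of tested genes. A match is a description of letters and not of binding, and the 38 genes belong to a pathway long studied as E2F-regulated.

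A single match is shown for each of 7 genes, picked from members with a small unadjusted p that held the letters. RFC1 and SLBP, also among the smallest p with DICER1 siRNA against the mock, held none, and RPA2 had no window. The matches are written 5′ to 3′ on the strand of the gene. Capitals mark the E2F letters.
UNG, chr12:109098098-109098127, plus strand: gagggaggtttTTTGCCGCgaaaagaccac
E2F1, chr20:33686387-33686416, minus strand: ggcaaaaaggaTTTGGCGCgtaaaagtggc
E2F2, chr1:23531257-23531286, minus strand: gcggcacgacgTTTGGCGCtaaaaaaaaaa
TYMS, chr18:657603-657632, plus strand: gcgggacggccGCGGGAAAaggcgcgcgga
PCNA, chr20:5126663-5126692, minus strand: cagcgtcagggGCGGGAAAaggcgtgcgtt
UHRF1, chr19:4909973-4910002, plus strand: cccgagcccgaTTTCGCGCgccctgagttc
CDT1, chr16:88803743-88803772, plus strand: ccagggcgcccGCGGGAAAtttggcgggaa
In UNG, E2F1, E2F2 and UHRF1 the letters read along the gene's strand, starting at -63, -20, -42 and -160 from the start site. TYMS, PCNA and CDT1 carry the same run, GCGGGAAA, which is TTTCCCGC read on the opposite strand, at -39, -59 and -35.

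**Figure D1:**
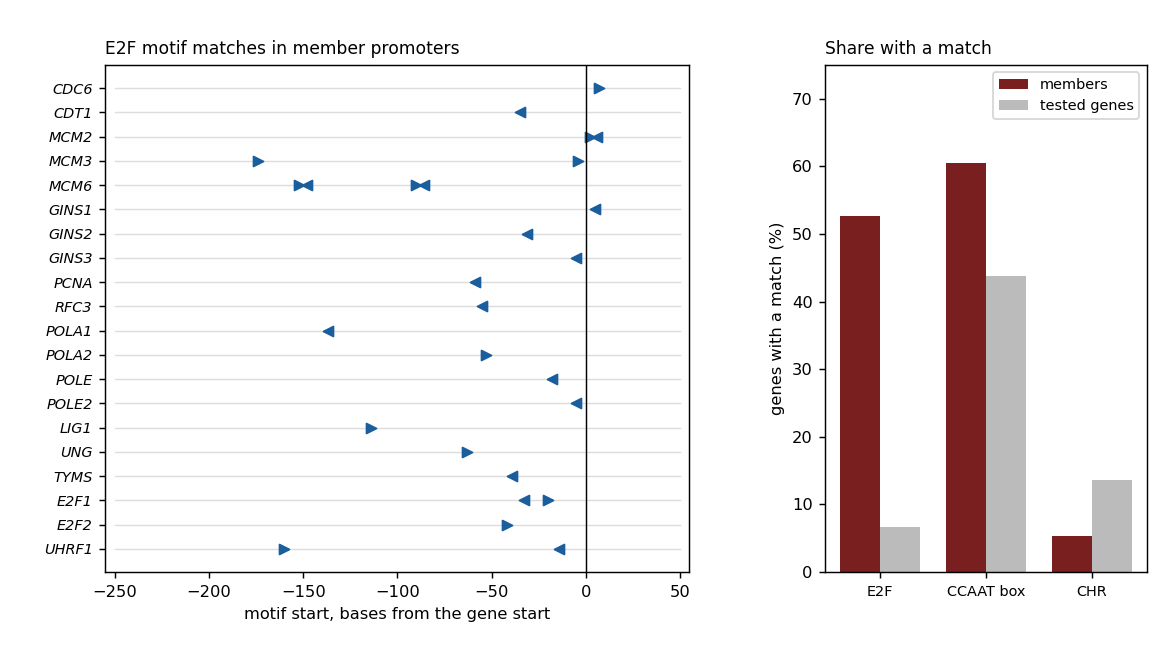
Left, start of each E2F letter match in the promoters of the 20 members that hold 1 (horizontal axis, bases from the gene start; right-pointing marks read along the gene and left-pointing marks on the opposite strand); right, percent of promoters with each motif for members (dark bars) and all tested genes (grey bars). The E2F letters stand at 52.6% against 6.59%, CCAAT at 60.5% against 43.8%, and TTTGAA at 5.26% against 13.6%.

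Library totals lay between 7620206 and 8736455 reads, and the 43 genes held between 0.853% and 0.936% of them. Both targets moved with their labels: DICER1 was at 243 CPM in the mock, 74.0 and 67.7 CPM in the DICER1 siRNA libraries and 282 and 332 CPM in the DROSHA siRNA libraries (log2 change from mock to DICER1 siRNA -1.78 ± 0.12 SE, edgeR adjusted p = 0.0260). DROSHA was at 191 CPM in the mock, 194 and 193 CPM with DICER1 siRNA and 41.2 and 41.9 CPM with DROSHA siRNA (-2.20 ± 0.09 SE, edgeR adjusted p = 0.000882). Of markers of the line, VIM lay at 418 to 463 CPM, NEFL at 106 to 176, KRT8 at 80.5 to 94.4 and CDH2 at 93.5 to 117, while NEFM and PAX2 stayed between 0.966 and 4.35. The blood list summed to between 21.9 and 26.9 CPM, nearly all of it HBB, and the leukocyte gene PTPRC had 0 reads in all 5 libraries. The 4-gene fibroblast list summed to between 5.50 and 7.35 CPM, nearly all of it COL1A1 at 5.38 to 7.35 CPM, while COL1A2 and DCN had 0 reads in all 5.

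In the mock, the members spanned a wide range of levels once reads were divided by exon length. The clamp gene PCNA led at 419.7 CPM per kb of exon, followed by the helicase subunits MCM3 at 198 and MCM4 at 187, then TYMS at 144 and UNG at 119. At the other end were ORC2 at 15.9, E2F2 at 15.3, the accessory polymerase subunit POLE2 at 15.02 and GINS4 at 10.7 CPM per kb. With a single mock library, neighbours in this order cannot be told apart beyond their spread. The first 5 places and the last were the same when length was taken from the longest principal transcript instead.

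Subunits that work in a fixed complex were not listed at equal mRNA levels. The ratios cover only subunits among the members, so that MCM7, POLE3 and POLE4, for example, are left out. Among the 5 genes MCM2 to MCM6, MCM3 stood 2.77-fold above MCM5 per kb in the mock. The ratio lay between 2.61-fold and 2.84-fold in every library. GINS1 stood 4.85-fold above GINS4, a ratio that was 3.41-fold by principal transcript length. RPA2 stood 3.76-fold above RPA3, RFC3 3.29-fold above RFC1, POLE 2.99-fold above POLE2 and PRIM1 2.48-fold above PRIM2. By principal transcript length these were 4.09-fold, 3.91-fold, 2.39-fold and 2.08-fold, in that order. Ratios also moved with the library: GINS1 to GINS4 was 6.85-fold in DROSHA siRNA 2, and RFC3 to RFC1 4.91-fold in DICER1 siRNA 2. The large and small subunits of ribonucleotide reductase, RRM1 and RRM2, were close, at 1.13-fold in the mock, 1.18-fold and 1.03-fold with DICER1 siRNA and 1.03-fold in DROSHA siRNA 1. In DROSHA siRNA 2 the same ratio was 2.50-fold.

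**Figure D2:**
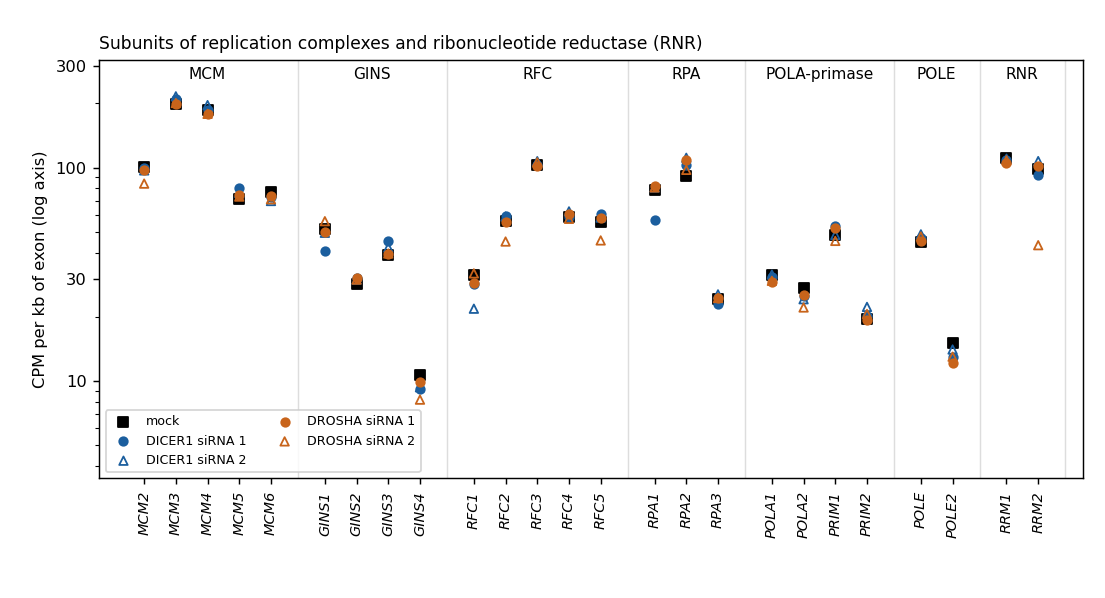
Levels of the member subunits in CPM per kb of exon (vertical log axis) for 6 replication complexes and ribonucleotide reductase. Each point is 1 library. Most subunits have their 5 points nearly on top of each other, while RRM2 in DROSHA siRNA 2, RPA1 in DICER1 siRNA 1 and RFC1 in DICER1 siRNA 2 stand below their other libraries.

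The first comparison asked whether these genes differed between cells given DICER1 siRNA and mock cells. None of the 43 passed the test (edgeR quasi-likelihood test, Benjamini-Hochberg adjusted p under 0.05), where 0.00817% of all tested genes, 1 gene, was called. The smallest adjusted p among the members was 0.865. Because the spread was estimated over all 5 libraries, this and every other p of this comparison also depend on the DROSHA pair. That pair is no part of the comparison, so 0.865 does not measure the DICER1 pair and the mock alone. Over 7148 genes the median gap within the DROSHA pair was 1.08-fold, against 1.05-fold in the DICER1 pair. Squared gaps in read counts averaged 7.73 times what counting alone gives in the DROSHA pair, and 2.66 times in the DICER1 pair. At an unadjusted edgeR p under 0.05 there were 2 members higher, UNG and E2F1, and 0 lower, against 2.48% and 2.98% of all tested genes. DESeq2 called 0 members at an adjusted p under 0.05. At an unadjusted p under 0.05 it gave 1 member, against 186 of 12234 tested genes. The median log2 change of the members was 0.06 (1.04-fold), against 0.0005 over all tested genes, and the changes ran from -0.32 to 0.37. Both DICER1 libraries were above the mock for 25 of 43 (58.1%) and below it for 9 (20.9%), against 36.7% and 36.4% of all tested genes, which makes 73.1% of them on either side. The log2 change was above 0 for 31 of 43 (72.1%), against 50.1% of all tested genes. In bulk RNA, a different share of cells in S phase and a different amount of mRNA per cell cannot be told apart.

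UNG, the uracil-DNA glycosylase that removes uracil built into DNA, had the smallest unadjusted p of the members. It stood at 284 CPM in the mock, 358 and 373 CPM with DICER1 siRNA, and 301 and 309 CPM with DROSHA siRNA. Both DICER1 libraries were above the other 3, and the DROSHA libraries lay between them and the mock. The log2 change with DICER1 siRNA against the mock was 0.37 ± 0.07 (SE), with a 95% interval from 0.19 to 0.55, and did not pass the test (edgeR adjusted p = 0.865, unadjusted p = 0.00190).

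The 4 regulators and S-phase partners, E2F1, E2F2, SLBP and UHRF1, had a median log2 change of 0.20. Each was higher in both DICER1 libraries than in the mock, as were 36.7% of all tested genes. E2F1, an activating E2F factor, was at 134 CPM in the mock, 167 and 166 CPM with DICER1 siRNA, and 157 and 129 CPM with DROSHA siRNA. Its DICER1 pair was nearly equal and above every other library, while the DROSHA pair lay on either side of the mock. The log2 change was 0.31 ± 0.13, with a 95% interval from 0.01 to 0.62 (edgeR adjusted p = 0.865). SLBP, which binds the stem-loop of histone mRNAs, was at 169 CPM in the mock, 184 and 196 CPM with DICER1 siRNA and 173 and 183 CPM with DROSHA siRNA, so that all 4 siRNA libraries were above the mock. Its log2 change with DICER1 siRNA was 0.17 ± 0.09 (edgeR adjusted p = 0.870).

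Among the 10 genes of origin recognition and licensing, the median log2 change was 0.09. CDT1, the licensing factor that brings MCM rings to origins, was at 135 CPM in the mock, 157 and 151 CPM with DICER1 siRNA and 148 and 137 CPM with DROSHA siRNA. Every siRNA library was above the mock for CDT1, and the DICER1 pair was above the DROSHA pair, with a log2 change from the mock of 0.19 ± 0.10 (edgeR adjusted p = 0.870). MCM6 lay below the mock where MCM3 and MCM5 lay above it, at 289 CPM in the mock, 273 and 261 CPM with DICER1 siRNA and 275 and 266 CPM with DROSHA siRNA. Its log2 changes were -0.11 ± 0.08 and -0.10 ± 0.08, and both pairs lay below the mock and overlapped each other. MCM3 was at 635 CPM in the mock, 671 and 693 CPM with DICER1 siRNA, and 637 and 645 CPM with DROSHA siRNA.

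The 6 genes of helicase activation had a median log2 change of 0.06. GINS3 was at 93.5 CPM in the mock, 108 and 101 CPM with DICER1 siRNA and 94.0 and 94.7 CPM with DROSHA siRNA, a log2 change of 0.16 ± 0.10 for DICER1 siRNA (edgeR adjusted p = 0.877). Its partner in the same complex, GINS4, was at 58.2 CPM in the mock, 49.96 and 51.1 CPM with DICER1 siRNA and 54.0 and 44.7 CPM with DROSHA siRNA. All 4 siRNA libraries were below the mock for GINS4, with log2 changes of -0.20 ± 0.14 and -0.24 ± 0.14. The subunits of this complex therefore lay on different sides of the mock, with no member past the test.

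At the fork, RPA2, the middle subunit of the protein that coats single-stranded DNA, was at 184 CPM in the mock, 207 and 225 CPM with DICER1 siRNA and 219.9 and 197 CPM with DROSHA siRNA. The mock was the lowest of the 5 libraries, and both pairs overlapped, with log2 changes of 0.23 ± 0.10 and 0.18 ± 0.10 (edgeR adjusted p = 0.868 and 0.979). The 7 primase and polymerase genes had a median log2 change of 0.004. POLA2, the accessory subunit of polymerase alpha, was at 102 CPM in the mock, 94.0 and 90.5 CPM with DICER1 siRNA and 94.99 and 82.8 CPM with DROSHA siRNA, below the mock in every siRNA library (log2 change -0.15 ± 0.12 with DICER1 siRNA). RFC1, the large subunit of the clamp loader, had the lowest log2 change of the comparison, -0.32 ± 0.16, with a 95% interval from -0.71 to 0.06 (edgeR adjusted p = 0.870); without DICER1 siRNA 2 it was -0.14, above RPA1 at -0.47, and without DICER1 siRNA 1 it was -0.53.

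The second comparison set the DROSHA siRNA libraries against the same mock, so any peculiarity of that 1 library enters both comparisons. Again 0 of 43 members passed (edgeR quasi-likelihood test), where 0.00817% of all tested genes were called. At an unadjusted edgeR p under 0.05 there were 0 members higher and 0 lower, against 2.07% and 1.62% (3.69% in all) of all tested genes. DESeq2 called 0 members at an adjusted p under 0.05. At an unadjusted p under 0.05 it gave 0 members, against 80 of 12234 tested genes. The median log2 change of the members was -0.04, against -0.005 over all tested genes, with a range from -0.44 to 0.18 and a smallest adjusted p of 0.979. Both DROSHA libraries were above the mock for 13 of 43 (30.2%) and below it for 16 (37.2%), close to the 31.5% and 32.4% (63.9% in all) of all tested genes. The log2 change was above 0 for 19 of 43, against 48.7% of all tested genes.

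**Figure D3:**
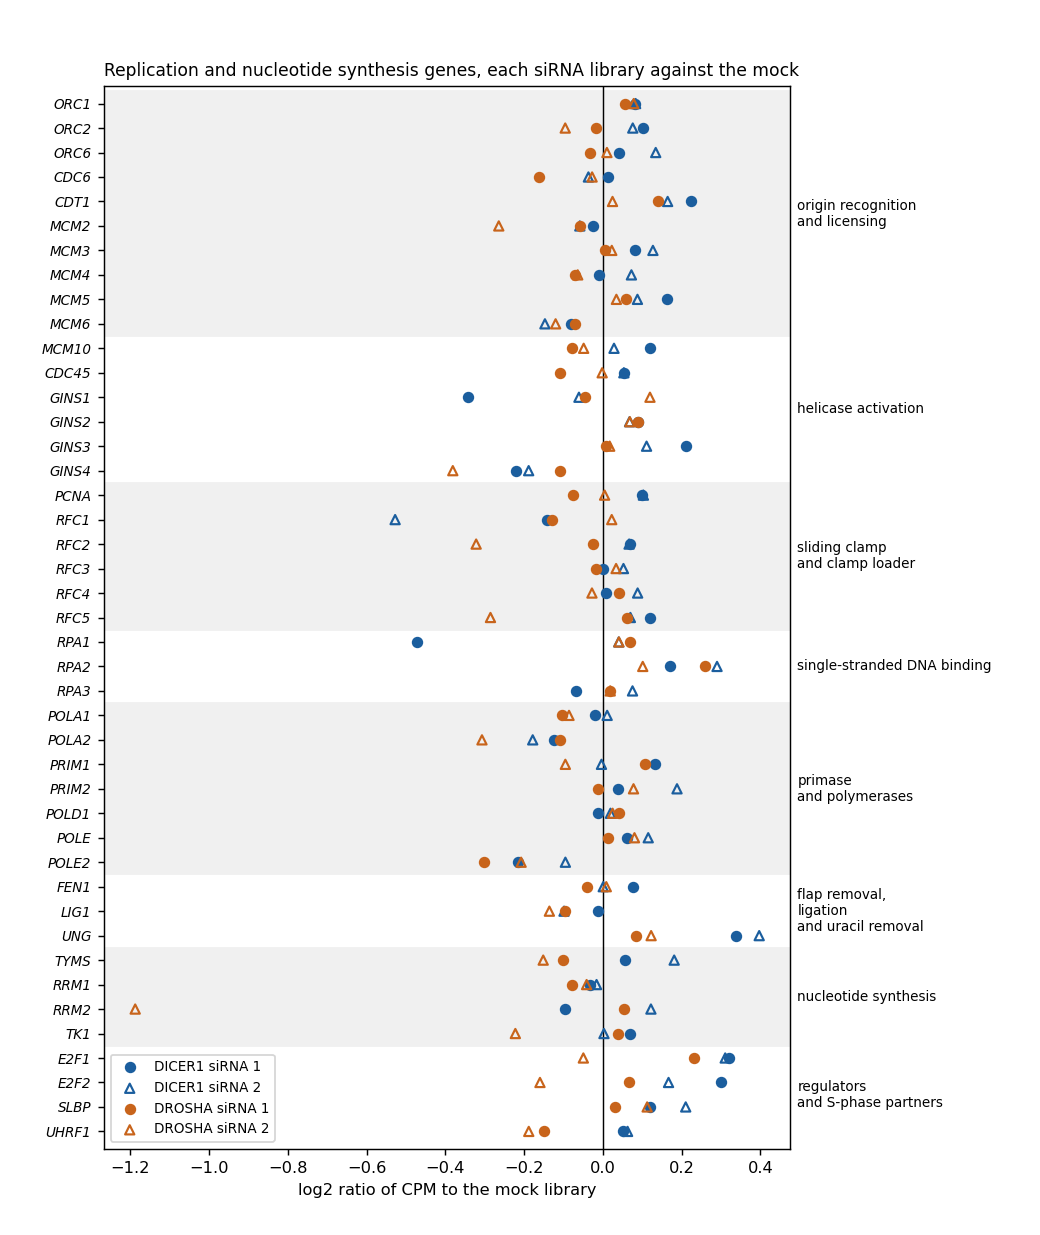
Log2 ratio of each siRNA library to the mock for the 43 members, grouped by role; each point is 1 library. Most points lie within a narrow band around 0, the median of the members is 0.05 and 0.07 in the DICER1 libraries and -0.02 and -0.03 in the DROSHA libraries, and RRM2 in DROSHA siRNA 2 is the lowest point.

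UHRF1, which binds newly copied, hemimethylated DNA and recruits the maintenance methyltransferase, had the smallest unadjusted p here. It was at 162 CPM in the mock, 168 and 169 CPM with DICER1 siRNA and 146 and 142 CPM with DROSHA siRNA. The DROSHA pair was below the mock and the DICER1 pair above it, and the log2 change with DROSHA siRNA was -0.17 ± 0.08 (edgeR adjusted p = 0.979). POLE2, the low-level partner of POLE, was at 33.4 CPM in the mock, 28.8 and 31.3 CPM with DICER1 siRNA and 27.1 and 28.9 CPM with DROSHA siRNA. All siRNA libraries were below the mock for POLE2, with a log2 change of -0.26 ± 0.13 for DROSHA siRNA (edgeR adjusted p = 0.979).

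For MCM2 the values were 366 CPM in the mock, 359.8 and 352 CPM with DICER1 siRNA and 352 and 305 CPM with DROSHA siRNA. DROSHA siRNA 2 stood apart from the other 4 libraries, and the log2 change with DROSHA siRNA was -0.16 ± 0.10 (edgeR adjusted p = 0.979). RFC2, a small clamp loader subunit, had 98.4 CPM in the mock, 103 and 103 CPM with DICER1 siRNA and 96.7 and 78.7 CPM with DROSHA siRNA, with a log2 change of -0.16 ± 0.14. Here too the low value was that of DROSHA siRNA 2, and the same library was the lowest of the 5 for POLA2 and GINS4. Without DROSHA siRNA 2 the log2 changes from the mock were -0.06 for MCM2, -0.02 for RFC2, -0.11 for POLA2 and -0.11 for GINS4, and without DROSHA siRNA 1 they were -0.27, -0.32, -0.31 and -0.38.

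The third comparison set the DICER1 pair against the DROSHA pair directly and does not use the level of the mock. No member passed (edgeR quasi-likelihood test), where 0.0163% of all tested genes, 2 genes, were called, and the smallest adjusted p of a member was 0.423. At an unadjusted edgeR p under 0.05 there were 5 members higher with DICER1 siRNA and 0 lower, against 4.02% and 4.32% of all tested genes. DESeq2 called 0 members at an adjusted p under 0.05. At an unadjusted p under 0.05 it gave 1 member, against 376 of 12234 tested genes. The log2 difference was above 0 for 36 of 43 members (83.7%), against 51.1% of all tested genes, and its median was 0.09 (1.06-fold) against 0.004. Both DICER1 libraries were above both DROSHA libraries for 21 members (48.8%) and below both for 4 (9.30%), against 20.9% and 20.0% (40.9% in all) of all tested genes. Genes of a shared pathway are not independent of each other, and the share of positive differences rests in part on DROSHA siRNA 2: without that library 30 of 43 were above 0, and without DROSHA siRNA 1, 37 were.

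**Figure D4:**
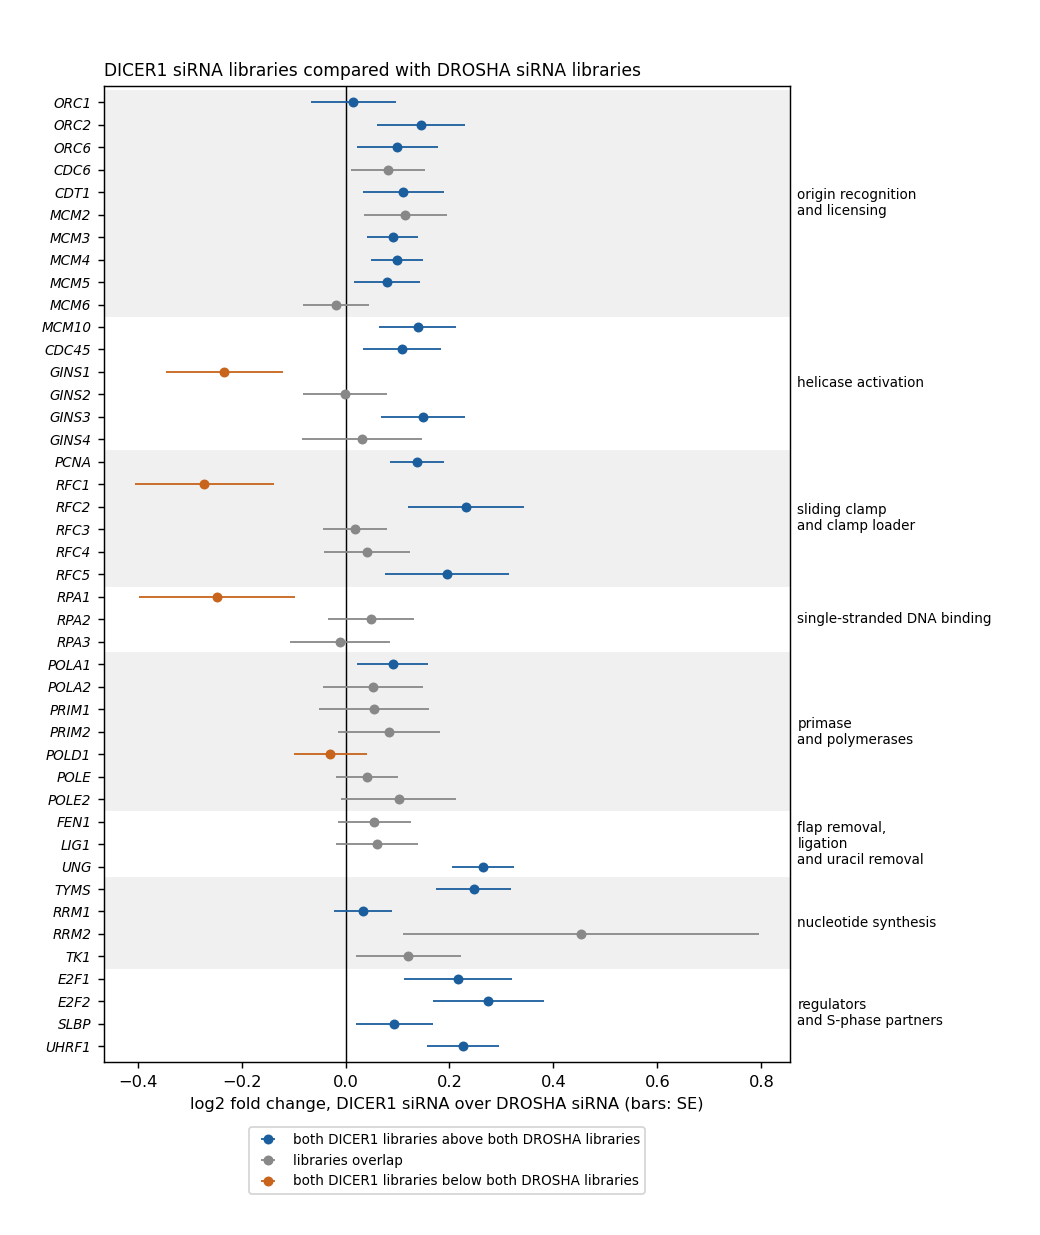
Log2 fold change of the DICER1 siRNA libraries over the DROSHA siRNA libraries for each of the 43 members (points) with its standard error (bars), grouped by role. Of the 43 points, 36 lie right of 0; blue marks the 21 members with both DICER1 libraries above both DROSHA libraries, and orange the 4 with both below.

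The 5 members with an unadjusted edgeR p under 0.05 were UNG, TYMS, UHRF1, PCNA and E2F2. For UNG the log2 difference was 0.26 ± 0.06, with a 95% interval from 0.12 to 0.41 (edgeR adjusted p = 0.423). TYMS, thymidylate synthase, which makes dTMP from dUMP, was at 239.7 CPM in the mock, 249 and 272 CPM with DICER1 siRNA and 223 and 216 CPM with DROSHA siRNA. The mock lay between the pairs, each of which was on its own side, and the log2 difference was 0.25 ± 0.07, with a 95% interval from 0.08 to 0.42 (edgeR adjusted p = 0.499). TYMS differed from the mock by 0.12 ± 0.09 with DICER1 siRNA and by -0.13 ± 0.09 with DROSHA siRNA. UHRF1 had a log2 difference of 0.23 ± 0.07 (edgeR adjusted p = 0.511).

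PCNA, the clamp that holds polymerases on DNA, was at 617 CPM in the mock, 662 and 663 CPM with DICER1 siRNA and 586 and 619 CPM with DROSHA siRNA. The DICER1 pair was above every other library, with a log2 difference from the DROSHA pair of 0.14 ± 0.05 and a 95% interval from 0.01 to 0.26 (edgeR adjusted p = 0.566). E2F2, another activating E2F factor, was at 79.3 CPM in the mock, 97.6 and 89.0 CPM with DICER1 siRNA and 83.1 and 71.0 CPM with DROSHA siRNA. The DICER1 pair was again above every other library and the DROSHA pair lay on either side of the mock, with a log2 difference of 0.27 ± 0.11 (edgeR adjusted p = 0.571). For E2F1 the difference was 0.22 ± 0.10 (edgeR adjusted p = 0.621). Without DROSHA siRNA 2 the differences were 0.16 for E2F2 and 0.08 for E2F1, and without DROSHA siRNA 1 that of E2F1 was 0.36.

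By role, the median log2 difference was 0.22 for the 4 regulators and partners, 0.18 for the 4 nucleotide synthesis genes and 0.09 for the 10 licensing genes and the 6 clamp and loader genes. It was 0.07 for the 6 genes of helicase activation, 0.06 for the 7 primase and polymerase genes and for the 3 genes of flap removal, ligation and uracil removal, and -0.01 for the 3 RPA genes. Without DROSHA siRNA 2 the median was 0.02 for nucleotide synthesis, 0.15 for the regulators and partners and 0.04 for the clamp and loader genes. The RPA median was 0.06 without DICER1 siRNA 1 and -0.09 without DICER1 siRNA 2, and that of flap removal, ligation and uracil removal 0.02 and 0.10. In licensing, both DICER1 libraries were above both DROSHA libraries for 7 of 10 and below for 0, against 20.9% and 20.0% of all tested genes. MCM4, below only MCM3 per kb of exon among MCM2 to MCM6, was an example. It was at 811 CPM in the mock, 805 and 853 CPM with DICER1 siRNA and 772 and 776 CPM with DROSHA siRNA. Its log2 difference was 0.10 ± 0.05 (edgeR adjusted p = 0.624). ORC2 was at 68.3 CPM in the mock, 73.4 and 72.0 CPM with DICER1 siRNA and 67.5 and 63.9 CPM with DROSHA siRNA.

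The remaining members of these roles showed the same small spans. The licensing gene MCM5 was at 253 CPM in the mock, 283 and 268 CPM with DICER1 siRNA and 263 and 259 CPM with DROSHA siRNA, above the mock in all 4 siRNA libraries. ORC6, an origin recognition subunit, was at 118 CPM in the mock, 121 and 129 CPM with DICER1 siRNA and 115 and 119 CPM with DROSHA siRNA. CDC6, which loads the ring with CDT1, was at 274 CPM in the mock, 276 and 267 CPM with DICER1 siRNA and 245 and 269 CPM with DROSHA siRNA, with the pairs overlapping. In helicase activation, MCM10 and CDC45 lay above both DROSHA libraries in both DICER1 libraries. MCM10 was at 150.1 CPM in the mock, 163 and 153 CPM with DICER1 siRNA and 142 and 145 CPM with DROSHA siRNA. CDC45 was at 158 CPM in the mock, 164 CPM in each DICER1 library and 147 and 158 CPM with DROSHA siRNA. GINS2 differed least, with 76.2 CPM in the mock, 81.0 and 79.8 CPM with DICER1 siRNA and 81.0 and 79.9 CPM with DROSHA siRNA.

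Among the clamp loader genes, RFC5 was at 137 CPM in the mock, 149 and 144 CPM with DICER1 siRNA and 143 and 112 CPM with DROSHA siRNA, where DROSHA siRNA 2 was the lowest library. RFC3 lay between 293 and 308 CPM and RFC4 between 91.98 and 99.7 CPM over all 5 libraries, and in both the pairs overlapped. Of the primase and polymerase genes, POLA1, the catalytic subunit of polymerase alpha, was at 172 CPM in the mock, 169 and 173 CPM with DICER1 siRNA and 159.7 and 162 CPM with DROSHA siRNA, so that its DROSHA pair was below every other library. POLE, the leading-strand polymerase, was at 352 CPM in the mock, 368 and 382 CPM with DICER1 siRNA and 356 and 373 CPM with DROSHA siRNA, with the mock lowest. POLD1, the catalytic subunit of polymerase delta, stayed between 141 and 146 CPM, and the primase subunits PRIM1 and PRIM2 stayed between 63.2 and 74.0 CPM and between 53.2 and 61.2 CPM. The flap nuclease FEN1 lay between 178 and 194 CPM and the ligase LIG1 between 112 and 124 CPM, where the mock was the highest library. TK1, the thymidine salvage kinase, was at 147 CPM in the mock, 154 and 147 CPM with DICER1 siRNA and 151 and 126 CPM with DROSHA siRNA, again lowest in DROSHA siRNA 2.

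The 4 members below in both DICER1 libraries were GINS1, RFC1, RPA1 and POLD1. GINS1, at 168 CPM in the mock, 132 and 161 CPM with DICER1 siRNA and 163 and 182 CPM with DROSHA siRNA, had a log2 difference of -0.23 ± 0.11 (edgeR adjusted p = 0.621). The gap was mostly in DICER1 siRNA 1, since DICER1 siRNA 2 was close to DROSHA siRNA 1. The median 95% half-width of a member's log2 difference was 0.19, and 0.23 in each comparison with the mock, so for most members a difference of the size of the medians was not detectable with 5 libraries.

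Members with the E2F letters and members without them had nearly the same median in the direct comparison. The 20 members with the letters had a median log2 difference of 0.10, with 17 above 0, and the 18 without them had 0.09, with 15 above 0. Over all tested genes with a promoter the medians were 0.02 with the letters and 0.002 without. With DICER1 siRNA against the mock the members' medians were 0.07 with the letters and 0.06 without. There 12 of 20 members with the letters were above 0 (60.0%) and 15 of 18 without them (83.3%), against 53.7% and 49.7% of tested genes. With DROSHA siRNA against the mock the medians were -0.04 and -0.03, with 9 of 20 and 7 of 18 above 0, against 49.4% and 48.8%.

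In 3 members the 2 libraries of a pair differed far more than in most genes, and these were chosen after their values were seen. The small ribonucleotide reductase subunit RRM2, whose level follows the cell cycle, was at 381 CPM in the mock, 356 and 414 CPM with DICER1 siRNA, 395 CPM in DROSHA siRNA 1 and 167 CPM in DROSHA siRNA 2. The DROSHA pair was 2.36-fold apart, with 3441 and 1312 reads, and DROSHA siRNA 1 was level with the other libraries. Among 7148 genes with a mean CPM at least that of the lowest member, 20 genes (0.280%) were at least as far apart in that pair. The log2 change of RRM2 was -0.44 ± 0.41 against the mock (edgeR adjusted p = 0.979) and the direct difference 0.45 ± 0.34 (edgeR adjusted p = 0.757), the lowest and the highest estimates among members in their comparisons. Without DROSHA siRNA 1 they were -1.19 and 1.205 and passed (edgeR adjusted p = 0.00273 and 0.00101), with a lone DROSHA library assumed to vary like the others; without DROSHA siRNA 2 they were 0.06 and -0.04. RRM1, the large subunit, was at 374 CPM in the mock, 365 and 369.7 CPM with DICER1 siRNA and 354 and 363 CPM with DROSHA siRNA.

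RPA1, the large single-stranded DNA-binding subunit, was at 341 CPM in the mock, 246 and 350.4 CPM with DICER1 siRNA and 358 and 350.4 CPM with DROSHA siRNA. DICER1 siRNA 1 alone was low, with 1879 reads against 2914 in DICER1 siRNA 2, a 1.43-fold gap that 48 of 7148 genes (0.672%) matched or passed. DICER1 siRNA 2 was level with DROSHA siRNA 2, so that RPA1 counts as lower in both DICER1 libraries by a margin under 1 CPM. The log2 change from the mock was -0.19 ± 0.18 with both DICER1 libraries and 0.04 without DICER1 siRNA 1. RFC1 was at 154 CPM in the mock, 139 and 107 CPM with DICER1 siRNA and 141 and 156 CPM with DROSHA siRNA. There the low library was DICER1 siRNA 2, 1.31-fold below DICER1 siRNA 1, a gap that 139 genes (1.94%) matched or passed.

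The other members varied little within pairs. The median gap of a member was 1.05-fold in the DICER1 pair and 1.05-fold in the DROSHA pair, against 1.05-fold and 1.08-fold over the 7148 genes. More than 1.2-fold separated the pair for 3 members with DICER1 siRNA and 5 with DROSHA siRNA, where 6.35% and 16.2% of the 7148 genes were as far apart. RPA3 at 51.8, 49.4, 54.6, 52.4 and 52.5 CPM and ORC1 at 70.8, 74.95, 75.03, 73.7 and 74.8 CPM, in the order mock, DICER1 pair and DROSHA pair, show how even a low member could be.

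**Figure D5:**
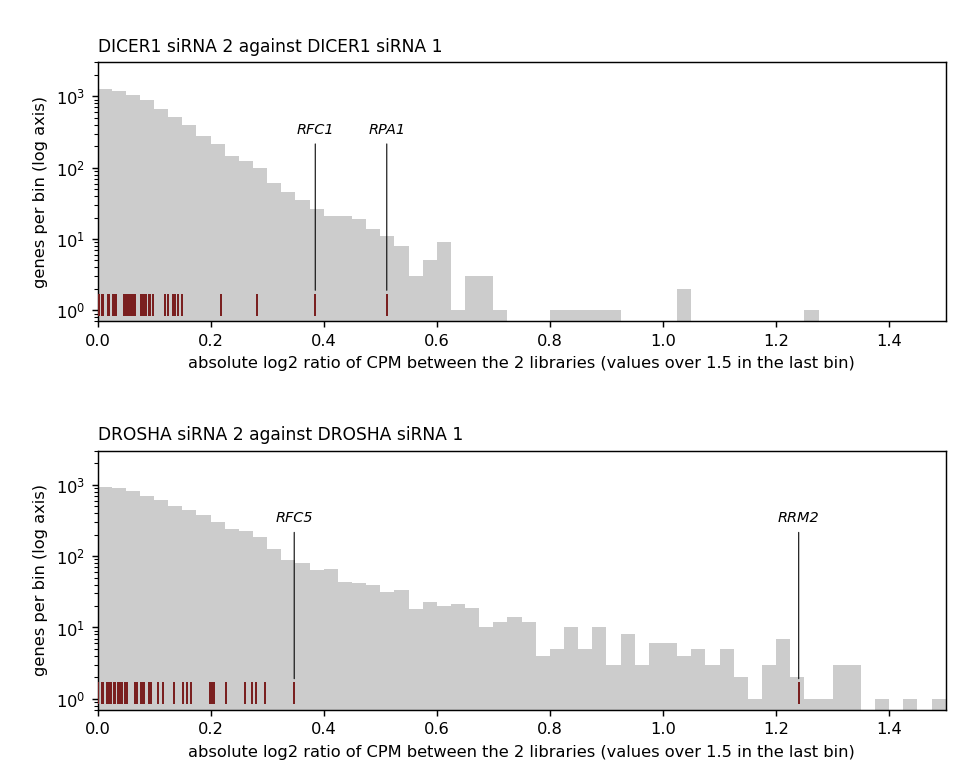
Number of genes (vertical log axis) by absolute log2 ratio of CPM between the 2 libraries of each pair (horizontal axis), over 7148 genes with a mean CPM at least that of the lowest member; ticks mark the 43 members. RPA1 and RFC1 lie in the tail of the DICER1 pair at 1.43-fold and 1.31-fold, RRM2 lies far out in the DROSHA pair at 2.36-fold, and RFC5 follows at 1.27-fold.

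Letters that pair with microRNA seeds were present in members' 3′ UTRs about as often as in all tested genes, or less often. MicroRNAs were not measured in these poly(A) libraries. The mature RefSeq sequences (GRCh38.p14) of 5 microRNAs are shown with the seed, bases 2 to 8, in capitals, because loss of DROSHA or DICER1 lowers such molecules.
hsa-miR-17-5p: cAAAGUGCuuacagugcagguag
hsa-miR-20a-5p: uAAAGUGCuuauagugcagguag
hsa-miR-106b-5p: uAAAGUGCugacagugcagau
hsa-let-7a-5p: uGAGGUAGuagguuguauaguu
hsa-miR-16-5p: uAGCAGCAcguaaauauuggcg
The first 3 share a seed. Its complement, GCACTTT, was present in the 3′ UTR (GENCODE 29) of 10 of 43 members (23.3%) and of 2642 of 11418 tested genes (23.1%). For let-7 the letters CTACCTC were present in 5 members (11.6%) and 10.4% of genes, and for miR-16 TGCTGCT in 5 members (11.6%) and 23.5% of genes. Members had shorter 3′ UTRs, with a median of 797 bases against 1191.

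The 10 members with GCACTTT were ORC6, CDT1, MCM3, MCM4, GINS2, GINS4, RPA2, RRM2, E2F1 and E2F2. Sites of E2F1 and E2F2 are printed because E2F1 is the textbook target, on the strand of the gene (GRCh38) with the seed match in capitals.
E2F1, chr20:33676328-33676357, minus strand: ggggctctaactGCACTTTcggcccttttg
E2F1, chr20:33675735-33675764, minus strand: accctccaatctGCACTTTgatttgcttcc
E2F2, chr1:23508958-23508987, minus strand: tggctgtggcggGCACTTTtcctcagagtt

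With DICER1 siRNA the log2 changes of these 10 members ran from -0.20 for GINS4 to 0.31 for E2F1, and with DROSHA siRNA from -0.44 for RRM2 to 0.18 for RPA2. E2F1 and E2F2 were at 0.31 and 0.23 with DICER1 siRNA and at 0.10 and -0.04 with DROSHA siRNA. The 5 members with the let-7 letters, RFC1, PRIM2, RRM2, TK1 and E2F2, ran from -0.32 to 0.23 with DICER1 siRNA. The 5 with the miR-16 letters, CDC6, CDT1, GINS2, GINS4 and UNG, ran from -0.20 to 0.37. None of these values passed the test, as given above.

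Other genes of the same pathways were taken from lists that do not hold the 43 members. Of 15 tested licensing and origin firing genes, 16 fork and polymerase genes, 22 nucleotide supply genes, 7 genes of chromatin copying and 15 genes of the E2F and pocket protein network, 0 of these 75 passed in any of the 3 comparisons (edgeR quasi-likelihood test), and DESeq2 called 0. At an unadjusted p under 0.05 edgeR gave 5 of 75 with DICER1 siRNA, 5 with DROSHA siRNA and 8 in the direct comparison, against 5.46%, 3.69% and 8.34% of all tested genes. With DICER1 siRNA their median log2 changes from the mock were -0.01, 0.03, -0.06, -0.002 and 0.06 in that order, and with DROSHA siRNA -0.03, -0.02, -0.04, -0.07 and 0.05. In the direct comparison the medians were -0.001, 0.02, -0.01, 0.06 and 0.005, all below the 0.09 of the members. In nucleotide supply, both DICER1 libraries were below the mock for 13 of 22 genes and above it for 4, against 36.4% and 36.7% of all tested genes. Both DROSHA libraries were below the mock for 13 and above it for 5, against 32.4% and 31.5%.

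RRM2B, the ribonucleotide reductase small subunit that p53 induces, was at 58.2 CPM in the mock, 43.9 and 43.3 CPM with DICER1 siRNA and 51.2 and 48.0 CPM with DROSHA siRNA, the reverse of the order seen for UNG. PPAT, the enzyme of the committed step of purine synthesis, was at 115 CPM in the mock, 105 and 114 CPM with DICER1 siRNA and 80.0 and 60.0 CPM with DROSHA siRNA. Its DROSHA pair was below every other library, and the log2 difference between the pairs was 0.64 ± 0.14 (edgeR adjusted p = 0.407). IMPDH1, an enzyme of guanine nucleotide synthesis, was at 173 CPM in the mock, 226 and 244 CPM with DICER1 siRNA and 222 and 261 CPM with DROSHA siRNA, above the mock in every siRNA library.

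In the E2F network, RBL2, the pocket protein p130, was at 120.1 CPM in the mock, 149 and 149 CPM with DICER1 siRNA and 146 and 145 CPM with DROSHA siRNA, and the mock stood alone as the lowest. CCNE2, a cyclin E that drives entry into S phase, was at 37.8 CPM in the mock, 31.8 and 31.0 CPM with DICER1 siRNA and 43.8 and 41.0 CPM with DROSHA siRNA. Its pairs lay on either side of the mock, in the order opposite to E2F2, with a log2 difference of -0.43 ± 0.10 (edgeR adjusted p = 0.443). TOP1, which relaxes DNA ahead of the fork, was at 277 CPM in the mock, 227 and 229 CPM with DICER1 siRNA and 253 and 244 CPM with DROSHA siRNA, lowest in the DICER1 pair.

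For the other named genes of these lists the log2 differences of the DICER1 pair from the DROSHA pair are given. CCNA2, the cyclin A of S phase, was at -0.28 ± 0.09. Of the fork factors, POLE3, a small subunit of polymerase epsilon, was at -0.21 ± 0.08, and TOP2A, the topoisomerase that untangles copied DNA, at 0.18 ± 0.07. Of the licensing and firing factors, MCM9 was at 0.26 ± 0.11, the origin-firing kinase CDC7 at 0.18 ± 0.07 and WDHD1, which links the helicase to polymerase alpha, at 0.23 ± 0.09. Of chromatin copying, the remodeller HELLS was at 0.20 ± 0.08, the chromatin assembly subunit CHAF1B at 0.15 ± 0.08 and the histone chaperone NASP at 0.07 ± 0.06. None passed the test.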

How the data were processed

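Poly(A) RNA libraries were made with an Illumina TruSeq protocol, per the labels' protocols. The submitters' processing notes list edgeR, HTSeq, STAR, CASAVA 1.8.2 and hg19, with neither role nor order. The authors deposited a table of raw counts, whole reads for each of 18257 gene symbols, of which 2602 had no read. How the counting treated strand: not given in the sources used here. Overlapping or antisense genes, and processed copies of members, cannot be separated.

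A gene was kept if 2 or more libraries reached 1 CPM. CPM with TMM factors and quasi-likelihood F tests were computed with edgeR 4.0.16 (R 4.3.3), with all 5 libraries in 1 fit, group as the term and Benjamini-Hochberg adjustment over 12234 genes. The single mock was assumed to vary like the siRNA pairs, which gave 2 residual degrees of freedom. Libraries of a pair varied by 8.51% (edgeR's common biological coefficient of variation). Each was made with a different siRNA, so this figure and the p-values include differences between siRNAs. The log2 fold change over the root of its F gave the standard error, and 95% intervals use 6.66 degrees of freedom. Members had 220 to 7092 reads per library, a counting error of 6.74% to 1.19%, which covers counting alone. "Above" or "below" for a pair means that every library of it lay on that side.

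Named members are the 6 with the smallest unadjusted p in each comparison and the smallest p of each role against the mock; of each other list, up to 3 with the smallest p. The members, roles and lists were chosen with earlier results of these data known. Members outside this rule, RPA1 and RRM2 among them, were described after their values were seen. Exon lengths and 3′ UTRs came from GENCODE 29 on GRCh38 by gene symbol, while the deposited counts use hg19, so no gene coordinates are given beyond those of printed sequences. A gene with several promoter windows was counted as holding a motif if any window did. Alternatives were other scaling factors, no filter, DESeq2 1.42.0, the edgeR likelihood ratio test, each siRNA library left out, the siRNA libraries alone and a replicate block. The fit was tested on simulated counts for DICER1 siRNA against mock and for the direct comparison. The planted changes were larger than any estimated for a member, so changes as small as the members' were not covered. Of the letter searches, only one for CCAAT was tested, in random sequence of A and T.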

Additional observations from a re-analysis of the deposited data

How the results depend on the processing

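No member was called under any alternative except without DROSHA siRNA 1, where RRM2 was, so that members called ranged from 0 to 1 against the mock and from 0 to 1 in the direct comparison. Over all genes, calls in DICER1 siRNA against mock went from 1 to 3 with no filter, 5 by DESeq2 and 29 by the likelihood ratio test, and from 0 to 5 when a library was left out. For DROSHA siRNA against mock, 1 became 3 by the likelihood ratio test and 1 to 225 with a library left out, the 225 without DROSHA siRNA 1. In the direct comparison 2 became 12 with no filter, 24 by DESeq2, 130 by the likelihood ratio test and 1 to 427 with a library left out, the 427 again without DROSHA siRNA 1. A lone library was then assumed to vary like the others.

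The median log2 change of the members with DICER1 siRNA was 0.0695 with upper-quartile factors and 0.0767 with library totals alone, which moved the median of all genes to 0.01 and 0.02, and 0.0545 to 0.0649 with a library left out. With DROSHA siRNA it was -0.0282 and -0.0193 under the same scalings, and -0.0365 to -0.0156 with a library left out. The direct median was 0.0657 to 0.0908 with a library left out. With a library left out, RPA1 with DICER1 siRNA against mock ranged from -0.468 to 0.0375, RRM2 with DROSHA siRNA against mock from -1.19 to 0.0553, and RRM2 in the direct comparison from -0.0376 to 1.205; the sign turned without DICER1 siRNA 1 for RPA1 and without DROSHA siRNA 2 for RRM2. Signs were followed only for members named by the rule in that comparison, with RPA1, RRM2 and RFC1 added. Every other member so followed kept its sign under every alternative run. Other members could turn with the library: with DROSHA siRNA 1 and 2 the log2 ratios to the mock were 0.23 and -0.05 for E2F1. For E2F2 they were 0.07 and -0.16. Exon length by principal transcript was added after the data were seen.

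With the siRNA number as a replicate block, 4 genes and 0 members were called in the direct comparison. Same-numbered libraries deviated together with r = 0.02 across 12234 genes in 2 pairs, and the numbers name different siRNAs, so nothing shows that they pair the libraries. The median 95% half-width of a member's log2 difference was 0.19 in the direct comparison, with wider intervals for members such as RRM2.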
